A study of Homo sapiens with 6 samples.

Results

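UCA1, H19, PVT1, HOTAIR, CCAT1, TUG1, CYTOR, MEG3, KCNQ1OT1 and MIAT are long noncoding RNAs that are studied widely in bladder cancer and other tumors. These 10 genes were selected on measured values of the same libraries, the CPM and the fold change of UCA1 between the groups among them, and each was looked up by the Ensembl ID that pairs with its symbol. A row was found for 9 of the 10 among 60483 gene rows, with no filter on low counts, and CCAT1 could not be paired with a row and is given no value. Because the difference between FTO-knockdown and control cells was among the values known when the list was made, the levels and fold changes of the 9 genes are given without a p-value, and where it is said which of them passed the threshold of the fit across all genes, this is a description and no support.

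The libraries came from 253J cells, an established human bladder cancer cell line. According to the labels, FTO-knockdown cells had received FTO siRNA (libraries siFTO 4, 5 and 6) and control cells a control siRNA (libraries control 1, 2 and 3), whereas the methods of the study describe knockdown by shRNA, and total RNA of both was sequenced at passages 16 to 19. FTO is a demethylase that removes the m6A mark from RNA, and the comparison asks which RNAs differ when its level is reduced. Either kind of knockdown is partial, the labels give no siRNA sequence, and nothing in them says that the libraries of a group came from separate cultures, so that the spread between libraries may be technical.

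Long noncoding RNAs carry no long open reading frame and act as RNA. Some of them, such as KCNQ1OT1 and HOTAIR, are known for bringing repressive chromatin complexes to genes, others, such as UCA1 and CYTOR, for binding proteins and microRNAs in the cytoplasm, and H19, MEG3 and KCNQ1OT1 are imprinted, that is, transcribed from the chromosome of a single parent. UCA1 (urothelial cancer associated 1) was named for its expression in bladder carcinoma, where it is described as promoting growth.

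Sequences are shown first for UCA1 and H19, the member with the largest fold change among the 7 that passed the filter on low counts and the member with the highest level. UCA1 lies on chromosome 19 (15828206 to 15836326, plus strand, GENCODE 29 on GRCh38), and its longest annotated transcript, UCA1-213 with 2687 bases, holds the letters GGACT, the commonest core of the m6A motif, at 2 places. The first is shown, which lies within an exon of this noncoding transcript, and the capitals mark the motif.
UCA1-213 bases 648 to 652, within chr19:15829213-15829243: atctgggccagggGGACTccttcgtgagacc
The transcript thus held 0.744 GGACT per kb, against a median of 0.938 per kb over the longest transcripts of 14887 tested genes. HOTAIR held 8 such motifs in 2421 bases, or 3.30 per kb, a density above that of 98.8% of those transcripts, and the other members lay between 0.532 per kb (CYTOR) and 1.38 per kb (MIAT). A match is a description of the letters and does not show that a site was methylated.

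H19 (chromosome 11, 1995176 to 2001470, minus strand) is also the host of the microRNA miR-675, whose mature forms are shown because reads of H19 stand for this precursor too. RefSeq (GRCh38.p14) gives them on chromosome 11, with the seed, bases 2 to 8, in capitals.
hsa-miR-675-5p, chr11:1996800-1996822: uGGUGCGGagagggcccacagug
hsa-miR-675-3p, chr11:1996768-1996787: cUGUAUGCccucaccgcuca
The 2 seeds differ from each other. The seed of miR-675-5p was shared by 1 other of the 2545 mature human microRNAs in the table and that of miR-675-3p by 0. The counts are of long RNA, and mature miR-675 was not measured.

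Total counts ranged from 13162731 to 15709975 in the siFTO libraries and from 10991789 to 19891269 in the control libraries, and the values below are CPM, that is, read counts relative to library sizes scaled by TMM. FTO itself had 20.2, 20.7 and 15.7 CPM in siFTO 4, 5 and 6, against 31.8, 21.4 and 31.2 CPM in control 1, 2 and 3, a log2 fold change of -0.57 ± 0.17 (SE) with an adjusted p of 0.0209 in edgeR, and the groups did not overlap. This call was kept in 4 of the 6 fits that left out 1 library and was lost when libraries were scaled by their totals alone (edgeR adjusted p = 0.0576). Libraries siFTO 4 and 5 stood apart from siFTO 6 and the controls: 8 mesenchymal genes, which were listed because of this difference in the same libraries, summed to 2053 and 2540 CPM in siFTO 4 and 5 and to 18.9 CPM in siFTO 6, against 10.3 to 11.5 CPM in the controls. Among them VIM, the intermediate filament of mesenchymal cells, had 636, 730 and 0.292 CPM in siFTO 4, 5 and 6, against 0.568 to 1.02 CPM in the controls. Of 11 fibroblast markers, 6, 6 and 3 reached 1 CPM in siFTO 4, 5 and 6, against 3 in each control. POSTN was at 0 in every library, and COL3A1, DCN, PDGFRA and THY1 stayed under 1 CPM. The 11 leukocyte markers were also higher in siFTO 4 and 5. They summed to 74.1, 87.9 and 6.998 CPM in siFTO 4, 5 and 6, against 4.24 to 5.95 CPM in the controls. Among them CD74 had 61.1 and 75.3 CPM in siFTO 4 and 5, while CD3E, CD3D and MS4A1 were at 0 in every library. Of 13 urothelial markers UPK1B was at 0 in every library and UPK1A, UPK2, UPK3A, GATA3, TP63 and KRT5 stayed under 1 CPM. UPK3B, PPARG, FOXA1, KRT13 and KRT20 were above 1 CPM in every library and KRT7 on both sides of it. The 5 of 5 epithelial markers were above 1 CPM in every library, and 7 of 7 intestinal markers reached 1 CPM in every library. The intestinal markers summed to 1151, 1117 and 1366 CPM in siFTO 4, 5 and 6, against 1460, 1487 and 1297 CPM in control 1, 2 and 3. The urothelial markers summed to 177, 167 and 203 CPM in siFTO 4, 5 and 6, against 207, 173 and 192 CPM in control 1, 2 and 3.

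Among the 7 members that passed the filter on low counts UCA1 had the largest difference. It had 10.4, 8.33 and 11.1 CPM in siFTO 4, 5 and 6, from 147, 134 and 152 reads, against 1.02, 1.47 and 0.672 CPM in control 1, 2 and 3, from 11, 22 and 13 reads. Every siFTO library lay several-fold above every control library, and siFTO 6 was the highest of all. The means were 9.94 ± 1.43 CPM in siFTO cells and 1.06 ± 0.402 CPM in control cells (SD, n = 3 each), and the fitted log2 fold change was 3.25 ± 0.27 (SE), or 9.51-fold. By fold change UCA1 ranked 69 of the 14965 genes tested. The level without siFTO 4 and 5 was as high, with a log2 fold change of 3.42 for siFTO 6 against the controls, so the difference was present in the library in which the mesenchymal genes were near the control level. Over 12 other settings the log2 fold change ran between 2.97 (without control 3) and 3.58 (without control 2). The 3 controls held 46 reads of UCA1 in all. An annotated antisense gene, LINC01764, shares 489 exon bases with UCA1, or 11.8% of its exons, but had 0, 0 and 0 reads in the siFTO libraries and 0, 1 and 0 in the controls.

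**Figure D1:**
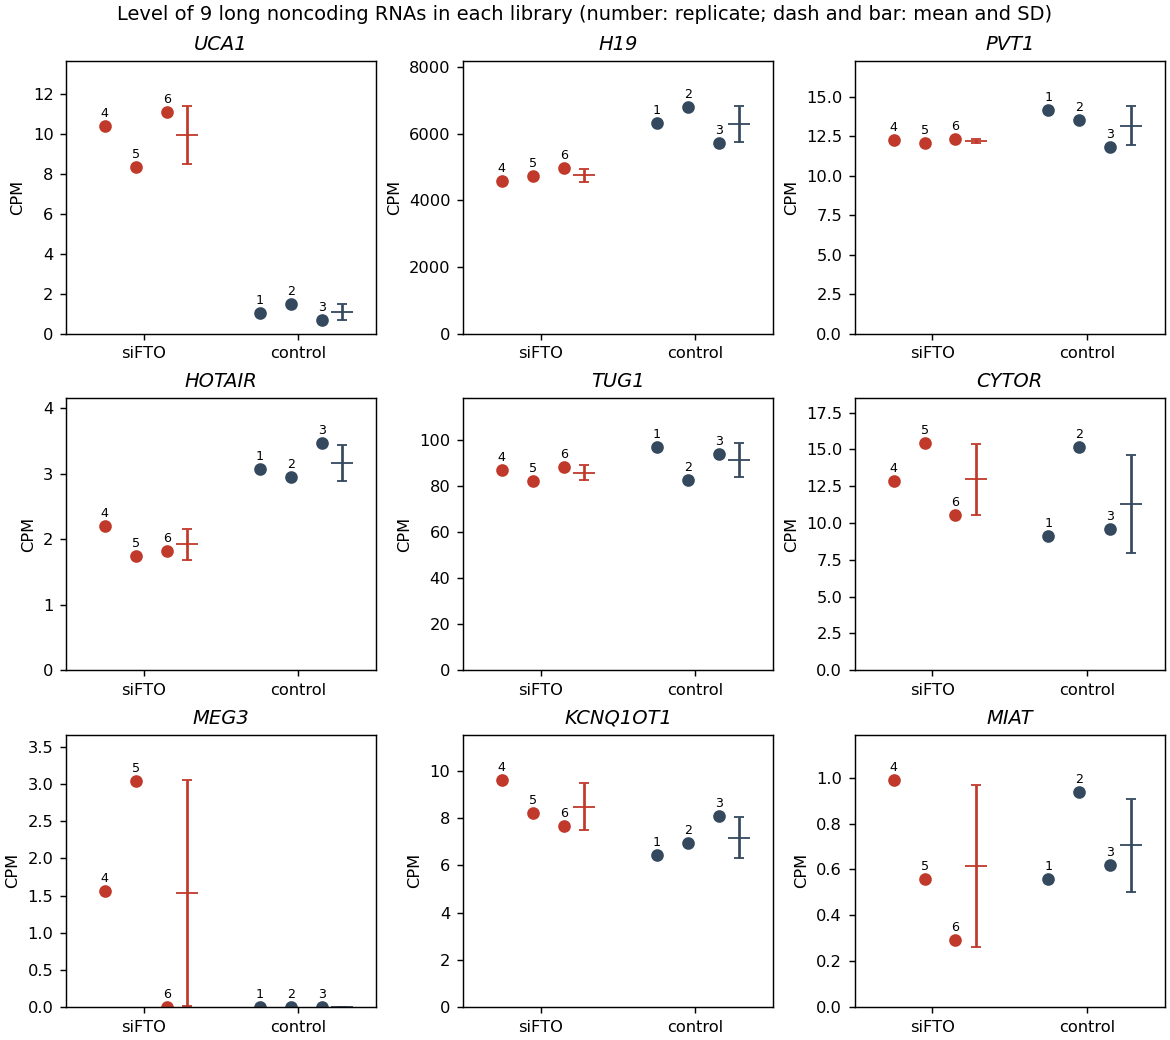
Level of the 9 matched long noncoding RNAs in CPM in each library, with siFTO 4, 5 and 6 on the left and control 1, 2 and 3 on the right of each panel, each panel on its own scale from 0. The dash and bar give the mean and SD (n = 3). UCA1 lies between 8.33 and 11.1 CPM in siFTO cells and between 0.672 and 1.47 CPM in control cells, and MEG3 is above 0 in siFTO 4 and 5 alone.

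H19, an imprinted RNA of fetal tissues that is often expressed again in bladder tumors, was by far the most abundant member. It had 4577, 4721 and 4959 CPM in siFTO 4, 5 and 6, against 6333, 6793 and 5730 CPM in control 1, 2 and 3. All siFTO libraries were below all controls. The means were 4752 ± 193 CPM in siFTO cells and 6286 ± 533 CPM in control cells (SD, n = 3 each), and the log2 fold change was -0.40 ± 0.08 (SE). The difference shrank to -0.16 on the log2 scale when counts were corrected for gene length and GC content, and the share of G and C in the longest H19 transcript is 0.634.

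HOTAIR (chromosome 12, 53962308 to 53974956, minus strand) is transcribed antisense within the HOXC cluster and is known for binding the Polycomb complex PRC2. It had 2.19, 1.74 and 1.82 CPM in siFTO 4, 5 and 6, against 3.07, 2.95 and 3.46 CPM in control 1, 2 and 3. These rest on 25 to 31 reads per siFTO library and 33 to 67 reads per control library. The groups did not overlap, and the log2 fold change was -0.72 ± 0.22 (SE), with values between -0.83 and -0.60 over the alternatives.

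In the edgeR quasi-likelihood fit, 1 of the 7 members that passed the filter on low counts was past an adjusted p of 0.05 in the higher direction (UCA1), 2 in the lower direction (H19 and HOTAIR), and 4 were not past it. Over all 14965 genes tested, 37.4% were past this threshold, 19.5% higher and 17.9% lower in siFTO cells. Of the 9 matched members, 1 was higher and 2 were lower without overlap of the groups, where 25.8% of all genes tested were higher and 25.6% lower without overlap. The call of H19 was kept in each of the 6 fits without 1 library and that of HOTAIR only without siFTO 6. Nothing is read from these counts, since the members were listed with this contrast known.

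MEG3, an imprinted RNA known as a growth suppressor, was found in 2 libraries. It had 22 and 49 reads in siFTO 4 and 5 (1.56 and 3.05 CPM) and 0 reads in siFTO 6, against 0 reads in each control. Libraries siFTO 4 and 5 are those with the mesenchymal genes, and siFTO 6, with the same siRNA label, did not differ from the controls in this count. Set against a floor of 3 reads over the 3 controls, the pooled reads of the 3 siFTO libraries were at least 24.3-fold higher. All of these reads came from siFTO 4 and 5, so this bound does not hold for siFTO 6. Set against a floor of 3 reads in siFTO 6, MEG3 was at least 10.7-fold higher in siFTO 4 and 5. The part of the mesenchymal genes, and of the cells they may stand for, in the level of MEG3 was not tested. In bulk RNA fewer cells of a type and less RNA per cell cannot be told apart.

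The RefSeq promoter of MEG3 is shown because the gene was silent in 4 of the 6 libraries. The first of its 3 listed starts is given, 250 bases before to 50 after it (chr14:100825858-100826157, plus strand, GRCh38.p14, GC 59.0%), and the capitals mark the cyclic AMP response element, TGACGTCA, which reads the same on both strands.
MEG3 promoter: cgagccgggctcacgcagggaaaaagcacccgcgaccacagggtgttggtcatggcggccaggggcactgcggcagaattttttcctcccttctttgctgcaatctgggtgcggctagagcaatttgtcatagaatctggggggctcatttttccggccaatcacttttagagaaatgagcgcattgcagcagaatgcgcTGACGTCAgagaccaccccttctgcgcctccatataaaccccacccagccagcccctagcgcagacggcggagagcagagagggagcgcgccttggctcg
These letters were present in 1.98% of 27305 promoters of this length. The other genes of the MEG3 domain were at or near 0: DLK1 had at most 0.0622 CPM in a library, RTL1 and MEG8 had 0 in every library, and MEG9 had 0.212 and 0.0622 CPM in siFTO 4 and 5 and 0 in the other libraries.

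KCNQ1OT1 (chromosome 11, 2608328 to 2699994, minus strand) is an imprinted antisense RNA within KCNQ1 that silences genes of its domain on the paternal chromosome. It had 9.62, 8.21 and 7.65 CPM in siFTO 4, 5 and 6, against 6.42, 6.97 and 8.11 CPM in control 1, 2 and 3. The ranges overlapped, and the log2 fold change was 0.24 ± 0.16 (SE). It was -0.16 after correction for length and GC content, so the direction was not settled. KCNQ1OT1 and KCNQ1 share 121 exon bases on opposite strands, and the strand setting of the counting is not given in the sources used here.

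CYTOR (LINC00152), a cytoplasmic RNA linked to proliferation and migration, had 12.9, 15.4 and 10.6 CPM in siFTO 4, 5 and 6, against 9.12, 15.1 and 9.61 CPM in control 1, 2 and 3. Control 2 was as high as siFTO 5, and the log2 fold change was 0.20 ± 0.21 (SE), with -0.10 when siFTO 4 and 5 were left out and -0.17 after correction for length and GC content. Reads of CYTOR are uncertain, since part of the gene is nearly identical to MIR4435-2HG, elsewhere on chromosome 2. Of 38 CYTOR and 25 MIR4435-2HG transcripts in GENCODE 29, the best pair (CYTOR-216 and MIR4435-2HG-222) aligned over 2254 bases with 99.2% identity and 14 mismatches, out of the 7512 bases of CYTOR-216. The stretch of 80 bases with the most differences in this alignment is shown, with the 2 differing bases in capitals.
CYTOR, chr2:87584261-87584340, plus strand: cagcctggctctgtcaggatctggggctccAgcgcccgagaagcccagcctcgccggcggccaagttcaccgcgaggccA
MIR4435-2HG, chr2:111366493-111366572, minus strand: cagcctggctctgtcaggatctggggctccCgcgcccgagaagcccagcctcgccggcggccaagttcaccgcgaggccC
MIR4435-2HG had 40.3, 44.8 and 31.2 CPM in siFTO 4, 5 and 6, against 34.2, 41.7 and 32.3 CPM in control 1, 2 and 3, with a log2 fold change of 0.11 that was not past the threshold (edgeR adjusted p = 0.587). In both genes siFTO 5 was the highest siFTO library and control 2 the highest control. The antisense LINC01943 shares 405 exon bases with CYTOR and had 15, 15 and 8 reads in siFTO 4, 5 and 6, against 3, 7 and 11 reads in control 1, 2 and 3.

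The RefSeq promoter of CYTOR (chr2:87455177-87455476, plus strand, GRCh38.p14) is shown because it holds the AP-1 motif, searched as TGAGTCA and its complement TGACTCA, 2 times within 20 bases of each other.
CYTOR promoter: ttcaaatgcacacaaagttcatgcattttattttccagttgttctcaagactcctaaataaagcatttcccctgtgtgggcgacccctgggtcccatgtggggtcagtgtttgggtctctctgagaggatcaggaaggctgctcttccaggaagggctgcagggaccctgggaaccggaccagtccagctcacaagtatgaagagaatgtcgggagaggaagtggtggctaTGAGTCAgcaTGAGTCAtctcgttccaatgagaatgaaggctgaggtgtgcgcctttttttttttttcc
The motif was present at least once in 4.92% and at least 2 times in 0.212% of 27305 promoters. It was not among the letters of the H19, TUG1, MEG3 and MIAT promoters. The table of promoters was not matched for UCA1, HOTAIR and KCNQ1OT1.

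MIAT, a nuclear RNA first associated with myocardial infarction, was near the limit of detection. It had 14, 9 and 4 reads in siFTO 4, 5 and 6 (0.99, 0.56 and 0.292 CPM), against 6, 14 and 12 reads in control 1, 2 and 3 (0.558, 0.938 and 0.620 CPM). The ranges overlapped, and MIAT, like MEG3, did not pass the filter on low counts. The antisense gene ENSG00000206028 shares 2148 exon bases with MIAT, or 18.2% of its exons, and had 0 to 3 reads in a library.

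PVT1 lies next to MYC on chromosome 8 and is gained together with it in tumors. It had 12.2, 12.1 and 12.3 CPM in siFTO 4, 5 and 6, against 14.1, 13.5 and 11.8 CPM in control 1, 2 and 3. The siFTO libraries were close to each other and lay within the range of the controls, and the log2 fold change was -0.10 ± 0.13 (SE), or 0.02 with libraries scaled by their totals alone. TUG1, which is described as binding PRC2, had 87.0, 82.2 and 88.1 CPM in siFTO 4, 5 and 6, against 96.7, 82.7 and 93.9 CPM in control 1, 2 and 3. Its ranges also overlapped (log2 fold change -0.09 ± 0.09, SE). With correction for length and GC content the value was -0.34 ± 0.07 (SE), and with library totals alone it was 0.03.

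Between the siFTO libraries, the members that passed the filter differed little. The filter drops genes that are high in siFTO 4 and 5 alone, such as MEG3, so this likeness is partly set by it. The mean of siFTO 4 and 5 over siFTO 6 ran from 0.845 for UCA1 to 1.34 for CYTOR over the 7 members tested, so that none of them was over 2-fold apart. Of the 9 matched members, 2 were over 2-fold higher in siFTO 4 and 5, MEG3 and MIAT (2.66-fold, from 14 and 9 against 4 reads), and 0 were over 2-fold lower. Of all 14965 genes tested 3.93% were over 2-fold higher and 0.488% over 2-fold lower. MEG3 and MIAT did not pass the filter and are not among those genes, so the shares are of unlike sets and are not compared. With 1 library on one side no test was made.

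**Figure D2:**
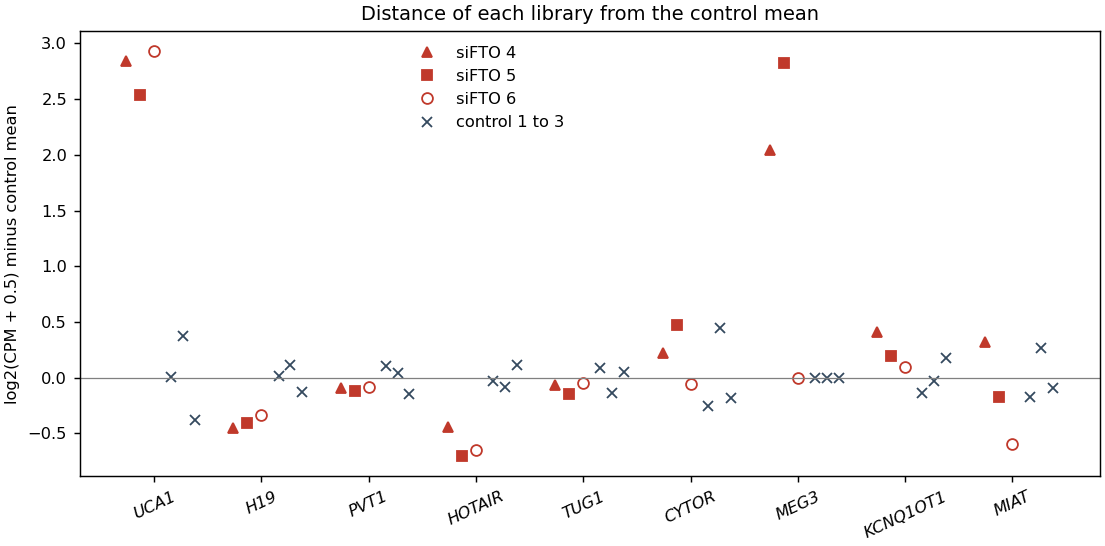
Difference of each library from the mean of the controls on the log2(CPM + 0.5) scale, with siFTO 4 (triangle), 5 (square) and 6 (open circle) left of control 1 to 3 (crosses) for each gene. The siFTO libraries of UCA1 lie between 2.54 and 2.93 above the control mean, and MEG3 reaches 2.04 and 2.83 in siFTO 4 and 5 but 0 in siFTO 6.

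Set per kb of exon, the order of levels in siFTO cells was H19 (1640 CPM per kb), TUG1 (8.45), UCA1 (2.39), PVT1 (2.22), HOTAIR (0.737), CYTOR (0.732), KCNQ1OT1 (0.0927), MEG3 (0.0661) and MIAT (0.0519). In control cells it was H19 (2170 CPM per kb), TUG1 (8.97), PVT1 (2.39), HOTAIR (1.21), CYTOR (0.638), UCA1 (0.254), KCNQ1OT1 (0.0782), MIAT (0.0596) and MEG3 (0). UCA1 was at rank 3 in siFTO cells, where its range of 2.01 to 2.67 CPM per kb enclosed that of PVT1 (2.20 to 2.24), and at rank 6 in control cells, between CYTOR (0.515 to 0.855) and KCNQ1OT1 (0.0700 to 0.0885). The ranges of HOTAIR (0.669 to 0.843) and CYTOR (0.597 to 0.871) overlapped in siFTO cells but not in control cells, where HOTAIR was at 1.13 to 1.33. Exon lengths are those of all annotated transcripts merged, which for KCNQ1OT1 and MEG3 is long and lowers the value.

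**Figure D3:**
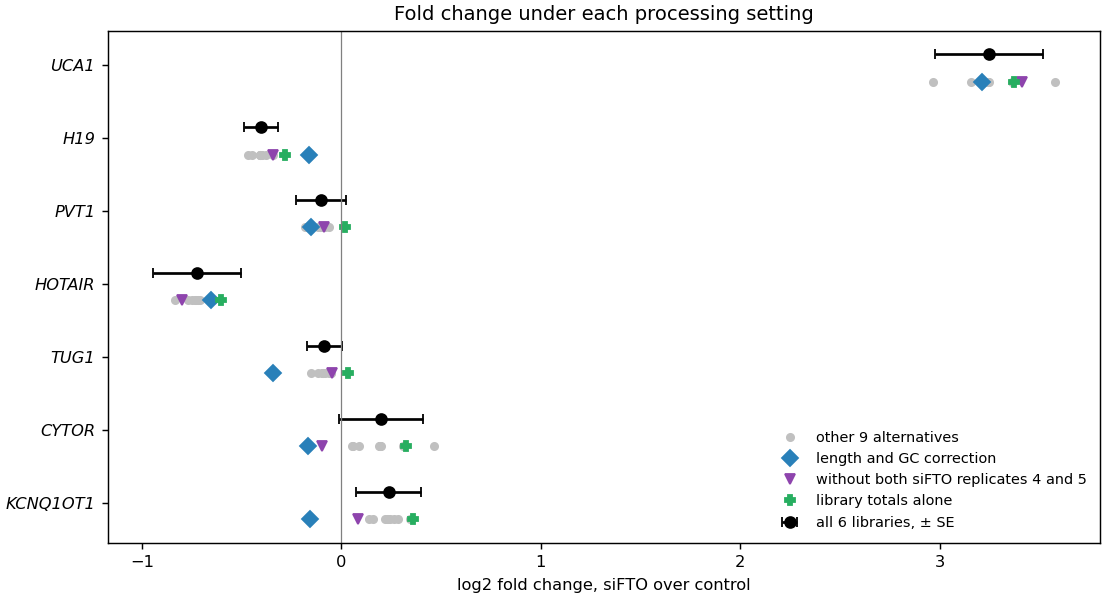
Log2 fold change, siFTO over control, of the 7 members tested: black points with all 6 libraries (± SE), and below them the values under 12 other processing settings. UCA1 stays between 2.97 and 3.58, H19 and HOTAIR stay below 0, and PVT1, TUG1, CYTOR and KCNQ1OT1 lie on both sides of 0.

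The genes whose pattern over the 6 libraries was most like that of UCA1 were GOLGA3, a Golgi coiled-coil protein (r = 0.998 on the log2(CPM + 0.5) scale), GDAP1, a protein of the mitochondrial outer membrane (0.996), MYL3, a myosin light chain (0.994), MUC1, an epithelial mucin (0.994), and LIMD1, a LIM domain scaffold of the Hippo pathway (0.993). GDAP1 had 16.3, 14.9 and 15.4 CPM in siFTO 4, 5 and 6, against 7.63, 8.10 and 7.18 CPM in control 1, 2 and 3. MUC1 was low, with 0.920, 0.995 and 1.09 CPM in siFTO 4, 5 and 6, against 0.279, 0.335 and 0.207 CPM in control 1, 2 and 3. Of 14964 genes compared, 8 had an r of at least 0.99. The r takes no account of the size of a difference. The log2 fold changes of GOLGA3, GDAP1, MYL3, MUC1 and LIMD1 were 0.37, 1.03, 1.62, 1.87 and 0.34, against 3.25 for UCA1. The 6 libraries fall into 2 groups, so this likeness is mostly that of a difference between the groups.

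Nearest protein-coding genes on both sides of the members, and those that overlap them, were looked up to describe each locus. No limit was set on distance, and the farthest, GSDMC, lies 1647 kb from PVT1. Of 20 such genes 13 were tested, 0 were higher, 8 were lower in siFTO cells and 5 were not past the threshold (edgeR, adjusted over all genes), where 17.9% of all genes were lower. At an unadjusted p under 0.05, edgeR again gave 0 higher and DESeq2 0 higher and 4 lower after adjustment. The median log2 fold change of the 13 was -0.84, against 0.01 for all genes tested.

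UCA1 lies between OR10H1, an olfactory receptor with at most 0.0622 CPM in any library, and CYP4F2, a fatty acid hydroxylase. CYP4F2 had 0.424, 0.933 and 0.583 CPM in siFTO 4, 5 and 6, against 1.02, 2.08 and 1.65 CPM in control 1, 2 and 3. It was lower where UCA1 was higher, with a log2 fold change of -1.29 ± 0.38 (SE, edgeR adjusted p = 0.0228), and was past the threshold in 2 of the 6 fits without 1 library.

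Beside H19, MRPL23, a mitochondrial ribosomal protein, had 32.8, 39.4 and 39.3 CPM in siFTO 4, 5 and 6, against 56.4, 87.3 and 56.0 CPM in control 1, 2 and 3. It fell by 0.84 ± 0.17 on the log2 scale (SE, edgeR adjusted p = 0.00432), in each fit without 1 library too. IGF2, the growth factor that shares an imprinting control region and enhancers with H19, had 91.5, 85.2 and 97.1 CPM in siFTO 4, 5 and 6, against 109, 87.5 and 101.7 CPM in control 1, 2 and 3, and was not past the threshold (log2 fold change -0.12 ± 0.10, SE, edgeR adjusted p = 0.353). IGF2-AS, its antisense transcript, was low and fell by 1.47 ± 0.28 on the log2 scale (SE, edgeR adjusted p = 0.00371).

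In the domain of KCNQ1OT1 the genes CDKN1C, KCNQ1 and SLC22A18 fell. CDKN1C, the cell cycle inhibitor p57, had 3.96, 3.61 and 4.30 CPM in siFTO 4, 5 and 6, against 10.7, 11.9 and 9.82 CPM in control 1, 2 and 3 (log2 fold change -1.45 ± 0.16, SE, edgeR adjusted p = 0.000509). KCNQ1, a potassium channel, had 41.0, 50.1 and 49.2 CPM in siFTO 4, 5 and 6, against 79.5, 81.4 and 76.4 CPM in control 1, 2 and 3 (log2 fold change -0.76 ± 0.10, SE, edgeR adjusted p = 0.000802). SLC22A18, a transporter, fell by 0.96 ± 0.15 on the log2 scale (SE, edgeR adjusted p = 0.00148). These 3 genes were past the threshold in each fit without 1 library. Without siFTO 4 and 5 their log2 fold changes were -1.32 (CDKN1C), -0.68 (KCNQ1) and -0.94 (SLC22A18). TRPM5 was past the threshold in 2 of the 6 fits without 1 library (log2 fold change -1.0 with all libraries). PHLDA2, also imprinted there, was not past the threshold (log2 fold change -0.12, edgeR adjusted p = 0.468), and turned to 0.32 with correction for length and GC content (adjusted p = 0.00868).

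In the HOXC cluster HOXC11, which overlaps HOTAIR on the other strand, had 4.53, 4.04 and 5.47 CPM in siFTO 4, 5 and 6, against 8.84, 8.44 and 9.77 CPM in control 1, 2 and 3 (log2 fold change -0.95 ± 0.17, SE, edgeR adjusted p = 0.00288). HOXC12 was under 1.2 CPM in every library and fell by 1.22 on the log2 scale (edgeR adjusted p = 0.0345), a call kept in 1 of the 6 fits without 1 library. HOXC10 had a log2 fold change of -0.43 ± 0.28 and was not past the threshold. MYC, beside PVT1, had 264, 263 and 306 CPM in siFTO 4, 5 and 6, against 353, 263 and 348 CPM in control 1, 2 and 3, and was not past the threshold (log2 fold change -0.21 ± 0.12, SE, edgeR adjusted p = 0.193). PLGLB1, the plasminogen-like gene that is nearest to CYTOR on 1 side but 433 kb away, was low. It was past the threshold (log2 fold change -1.05, edgeR adjusted p = 0.0386), a call kept in 1 of the 6 fits without 1 library. Of the list of 14 imprinted and MYC locus genes, 8 were tested, 0 were higher and 5 were lower (CDKN1C, KCNQ1, SLC22A18, IGF2-AS and POU5F1B), where 17.9% of all genes were lower. CDKN1C and KCNQ1 are also among the neighbouring genes. In this list 0 were higher at an unadjusted p under 0.05 in edgeR, and 0 in DESeq2.

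**Figure D4:**
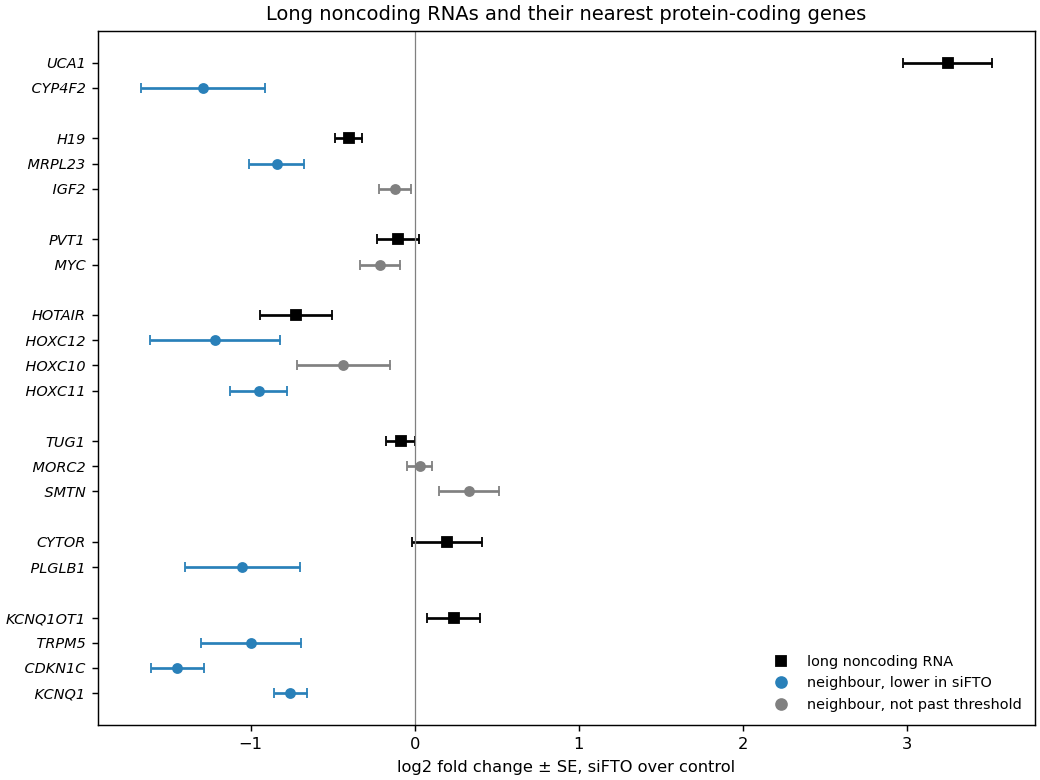
Log2 fold change ± SE, siFTO over control, of the 7 members tested (black squares) and, below each, its tested neighbouring or overlapping protein-coding genes (blue, lower in siFTO with an adjusted p under 0.05; grey, not past the threshold). UCA1 is at 3.25 and its neighbour CYP4F2 at -1.29.

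For comparison, 69 other long noncoding RNAs described in cancer were listed, of which 64 had a row and 38 were tested. Of these, 6 rose, 8 fell and 24 were not past the threshold, with a median log2 fold change of -0.07. Over all GENCODE genes of long noncoding types, 1513 were tested, 66 were higher and 278 lower in siFTO cells, with a median of -0.28, against 0.01 for all genes. The share past the threshold among the 38 (36.8%) was close to that of all genes (37.4%) but above that of the 1513 genes of long noncoding types (22.7%). The 38 were chosen by name and not matched to the 1513 by level, so nothing is read from this difference.

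LINC01234, a cytoplasmic RNA described in gastric and breast tumors, had the largest rise among the 38 tested. It had 7.43, 8.70 and 2.48 CPM in siFTO 4, 5 and 6, against 0.930, 0.536 and 0.775 CPM in control 1, 2 and 3 (log2 fold change 3.07 ± 0.46, SE, edgeR adjusted p = 0.00140). MIR22HG, the host of miR-22 and a stress-induced RNA, had 34.5, 40.8 and 11.1 CPM in siFTO 4, 5 and 6, against 5.77, 4.55 and 4.50 CPM in control 1, 2 and 3 (log2 fold change 2.56 ± 0.40, SE, edgeR adjusted p = 0.00157). In both, siFTO 4 and 5 were each over 2-fold above siFTO 6, where UCA1 was highest in siFTO 6. Without siFTO 4 and 5, which leaves 1 siFTO library, the log2 fold changes were 1.74 and 1.18. LUCAT1, an RNA induced by stress, had 2.40, 2.74 and 0.510 CPM in siFTO 4, 5 and 6, against 0.372, 0.402 and 0.775 CPM in control 1, 2 and 3, and its rise (log2 fold change 1.79 ± 0.56, SE, edgeR adjusted p = 0.0296) turned to -0.09 without siFTO 4 and 5. LINC00668 rose too, by 1.36 on the log2 scale (edgeR adjusted p = 0.0484), and was past the threshold in 2 of the 6 fits without 1 library. MIR100HG, the host of let-7a-2, miR-100 and miR-125b-1, did not pass the filter and had 13.7, 15.2 and 0.0729 CPM in siFTO 4, 5 and 6, against 0 in every control. The part of the mesenchymal genes in these values was not tested.

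Of those that fell, LINC01133 had 1.70, 1.18 and 0.802 CPM in siFTO 4, 5 and 6, against 5.58, 6.63 and 2.38 CPM in control 1, 2 and 3 (log2 fold change -1.96 ± 0.41, SE, edgeR adjusted p = 0.00515), past the threshold in 4 of the 6 fits without 1 library. CRNDE, an RNA raised in colorectal neoplasia, had 7.50, 7.52 and 6.05 CPM in siFTO 4, 5 and 6, against 13.6, 16.1 and 12.5 CPM in control 1, 2 and 3 (log2 fold change -1.0 ± 0.16, SE, edgeR adjusted p = 0.00168). CRNDE was past the threshold in each fit without 1 library, and its log2 fold change was -1.21 without siFTO 4 and 5. HOXA11-AS and MNX1-AS1, antisense RNAs of homeobox genes, fell by 1.17 and 0.79 on the log2 scale (edgeR adjusted p = 0.0239 and 0.00302). The call of HOXA11-AS was kept in 2 of the 6 fits without 1 library and was lost in DESeq2 (adjusted p = 0.0688), and the log2 fold change of MNX1-AS1 was -0.37 with correction for length and GC content. Of the 14 calls in this list, 2 of the 6 higher and 4 of the 8 lower were kept in every fit without 1 library.

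**Figure D5:**
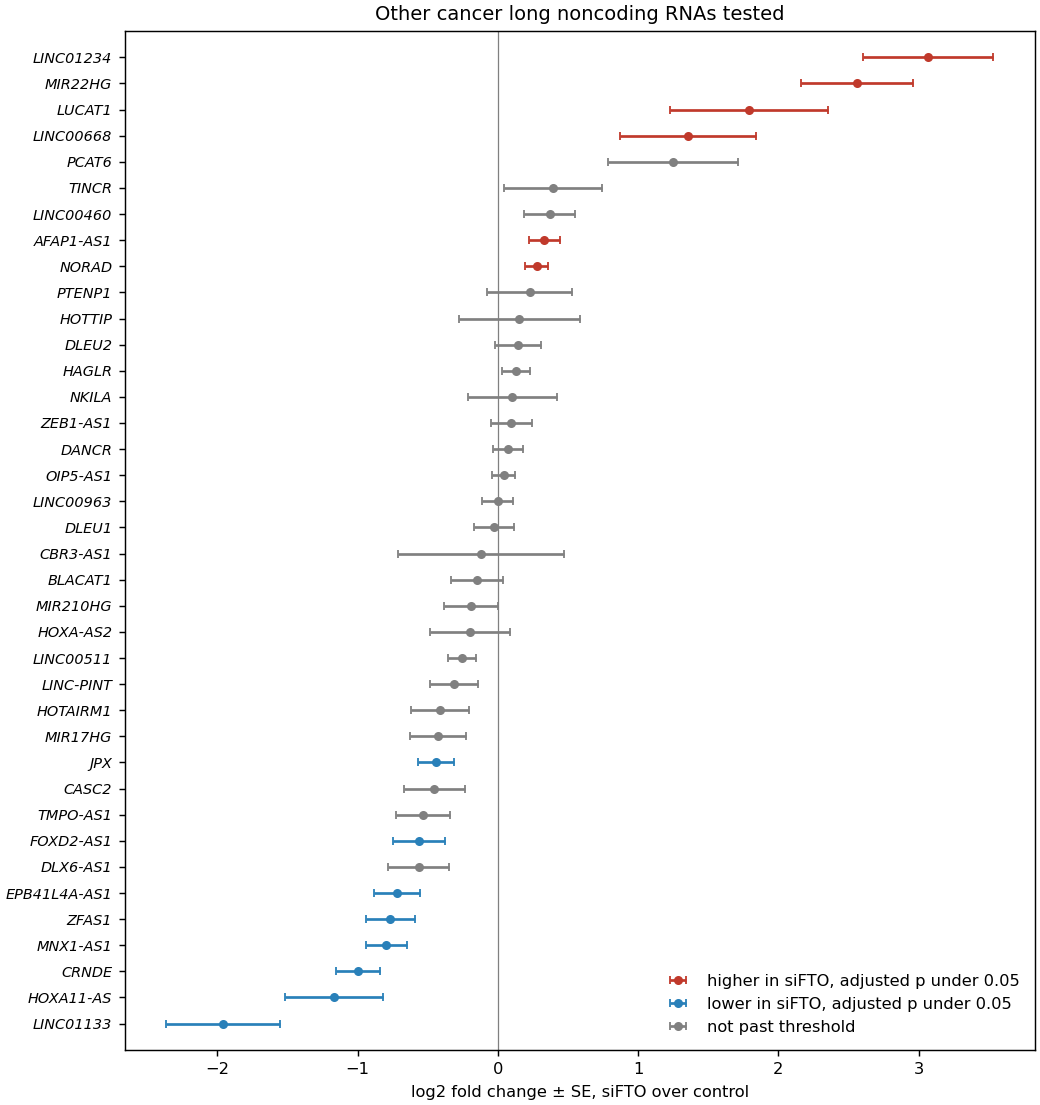
Log2 fold change ± SE, siFTO over control, of the 38 other cancer long noncoding RNAs tested, sorted by value. Red marks the 6 that were higher and blue the 8 that were lower in siFTO cells at an adjusted p under 0.05 in edgeR; LINC01234 is at 3.07 and LINC01133 at -1.96.

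Proteins that are known to bind or regulate the members were described as a further list of 26, of which 25 were tested, 8 rose and 3 fell, that is, 44.0% were past the threshold against 37.4% of all genes. Leaving out siFTO 4 and 5 leaves 1 siFTO library, so only fold changes are given here for that fit. HIF1A, the hypoxia factor, had 106, 118 and 39.7 CPM in siFTO 4, 5 and 6, against 28.6, 17.4 and 26.1 CPM in control 1, 2 and 3 (log2 fold change 1.87 ± 0.34, SE, edgeR adjusted p = 0.00289). IGF2BP3, an RNA-binding protein that reads m6A, had 6.44, 7.77 and 1.60 CPM in siFTO 4, 5 and 6, against 1.30, 0.335 and 0.723 CPM in control 1, 2 and 3 (log2 fold change 2.81 ± 0.58, SE, edgeR adjusted p = 0.00495). Its log2 fold change was 1.10 without siFTO 4 and 5. QKI, an RNA-binding protein, rose by 1.02 on the log2 scale (edgeR adjusted p = 0.00421), and by 0.50 without siFTO 4 and 5. In these 3 genes siFTO 4 and 5 were higher than siFTO 6.

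Among the Hippo pathway factors TEAD1, a DNA-binding partner of YAP, had 98.5, 85.2 and 92.2 CPM in siFTO 4, 5 and 6, against 59.8, 54.7 and 61.3 CPM in control 1, 2 and 3 (log2 fold change 0.65 ± 0.09, SE, edgeR adjusted p = 0.00106). This call was kept in each fit without 1 library, and the log2 fold change was 0.66 without siFTO 4 and 5. The coactivator WWTR1 (TAZ) rose by 0.82 ± 0.15 on the log2 scale (SE, edgeR adjusted p = 0.00272), and by 0.53 without siFTO 4 and 5. TEAD4 had 38.2, 41.8 and 47.8 CPM in siFTO 4, 5 and 6, against 59.0, 70.9 and 66.0 CPM in control 1, 2 and 3 (log2 fold change -0.62 ± 0.11, SE, edgeR adjusted p = 0.00269). Its log2 fold change was -0.45 without siFTO 4 and 5. EHMT2, the histone methyltransferase G9a, fell by 0.30 on the log2 scale (edgeR adjusted p = 0.0230), a call kept in 1 of the 6 fits without 1 library and lost with library totals alone (edgeR adjusted p = 0.124). EZH2, the catalytic subunit of PRC2, had a log2 fold change of 0.00 ± 0.08 (SE) and was not past the threshold.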

How the data were processed

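RNA-seq of 253J cells was analysed from 3 FTO siRNA and 3 control siRNA libraries. The authors deposited 1 file of raw counts of reads per gene and library. TopHat2 2.0.11, HTSeq, hg19 and GRCh37 are named in the submitters' processing notes, with no role stated, and for the HTSeq version, annotation and strand setting the sources used here give nothing. Some row IDs belong to later annotations, and which build the reads were counted on remains unclear. Row IDs were stripped of their version and looked up in GENCODE 29 (GRCh38) for coordinates (56753 of 60483 rows found). Symbols were taken from a separate list of gene names (56321 rows). All 37 mitochondrial rows were at 0.

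Low genes were dropped with filterByExpr of edgeR 4.0.16 (R 4.3.3; count 10, total 15), TMM factors were computed, and siFTO was tested against control by the edgeR quasi-likelihood F test without covariates. Tests were two-sided, with Benjamini-Hochberg adjustment over 14965 genes and a threshold of 0.05. SEs were computed as the absolute log2 fold change over the square root of F. CPM use the TMM-scaled library sizes over genes that passed the filter. The script was tested on simulated data. Library totals ranged from 13162731 to 15709975 (siFTO) and from 10991789 to 19891269 (control), and counting error limits members with few reads. Floors of 3 counts cover counting error only.

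The members and gene lists were chosen with earlier results of these data known. Named genes were the 10 members, FTO, up to 4 genes per list and direction past the threshold with the largest fold change, neighbouring genes without overlap of the groups, the 5 genes most like UCA1 and MIR4435-2HG; others named were chosen after their values were seen. Alternatives were DESeq2-type size factors, library totals alone, no filter, DESeq2 1.42.0, leaving out each library, leaving out siFTO 4 and 5 together, and an offset for gene length and GC content (78 genes without a value were given the median). Identity of transcripts was found with blastn 2.17.0. Sequences of promoters and microRNAs are from RefSeq (GRCh38.p14), and transcripts from GENCODE 29. A gene of the list of partners and regulators and a sequence are not reported here.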

Additional observations from a re-analysis of the deposited data

How the results depend on the processing

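The members were selected on this contrast, so their calls are descriptions. H19 was not past the threshold with correction for length and GC content, and its log2 fold change was -0.34 without siFTO 4 and 5. HOTAIR was past the threshold with DESeq2-type size factors, with that correction and without siFTO 6 alone, and TUG1 with that correction alone. MEG3 entered 6 fits, through siFTO 4 and 5 where it is high: it was past the threshold with no filter and without siFTO 6, and not past it in DESeq2 or without control 1, 2 or 3. Library totals alone moved the median of all genes to 0.13 on the log2 scale. Leaving out 1 library at a time, the genes tested that were higher ran from 1383 to 3826 and lower from 1589 to 2928, the other cancer long noncoding RNAs higher from 2 to 9 and lower from 4 to 10, the neighbouring genes higher from 0 to 1 and lower from 4 to 7, and the partners and regulators higher from 3 to 7 and lower from 1 to 3. Without siFTO 4 and 5 these counts were 970 and 926 for all genes, 3 and 4 for the other cancer long noncoding RNAs, 3 lower for the neighbouring genes, and 2 and 0 for the partners and regulators (edgeR). With library totals alone 1787 of all genes were lower, and 13 partners and regulators were higher and 1 lower. With length and GC correction 3 other cancer long noncoding RNAs were higher, 2 of them among the 6 (LINC01234 and MIR22HG), and PCAT6 (adjusted p = 0.0144). Neighbouring genes that were lower numbered 5 with no filter and 4 in DESeq2. Members not past the threshold changed sign: PVT1 and TUG1 to 0.02 and 0.03 with library totals alone, and CYTOR and KCNQ1OT1 to -0.17 and -0.16 with length and GC correction, as did CYTOR without siFTO 4 and 5 (-0.10). No paired analysis was possible because the labels number the control libraries 1 to 3 and the siFTO libraries 4 to 6. Depth limits MIAT, MEG3 and HOTAIR, and the control level of UCA1.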

Other observations

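KRT20, a keratin of umbrella cells of the urothelium and of intestinal epithelium, also rose in all 3 siFTO libraries. It had 20.2, 20.2 and 27.6 CPM in siFTO 4, 5 and 6, against 4.56, 4.29 and 3.88 CPM in control 1, 2 and 3, a log2 fold change of 2.43 ± 0.17 (SE, edgeR adjusted p = 4.6e-05). As for UCA1, siFTO 6 was the highest library, and without siFTO 4 and 5 the log2 fold change was 2.71. FABP1, an intestinal and hepatic fatty acid binding protein, had 4.81, 3.73 and 6.49 CPM in siFTO 4, 5 and 6, against 2.23, 2.95 and 2.27 CPM in control 1, 2 and 3 (log2 fold change 1.0 ± 0.25, SE, edgeR adjusted p = 0.0117). Of the 6 urothelial markers tested, KRT20 rose and FOXA1 fell (log2 fold change -0.31, edgeR adjusted p = 0.0492). Of the 7 intestinal markers tested, FABP1 rose, while CDX2, AGR2 and LGALS4 fell (log2 fold changes -0.78, -0.73 and -0.28, edgeR adjusted p = 0.000832, 0.00451 and 0.0485). The groups overlapped for FOXA1 and LGALS4. Their calls were kept in 2 and 1 of the 6 fits without 1 library and lost with library totals alone (edgeR adjusted p = 0.230 and 0.218). The calls of CDX2, AGR2 and FABP1 were kept in 6, 5 and 4 of those 6 fits.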
